A study of Mus musculus with 10 samples.

Results

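The genes described here are 10 mouse genes that mark the hormone-secreting cells of the gut epithelium, the enteroendocrine cells. They were chosen by name: Gcg, Pyy, Insl5, Cck, Sct and Sst encode peptide hormones, Tph1 the enzyme that starts serotonin synthesis, Chga and Chgb proteins of the secretory granule, and Neurod1 a transcription factor. All 10 were present among the 56691 genes of the deposited table. All 10 also passed the filter on low counts, which kept 16545 genes.

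Enteroendocrine cells are scattered singly among the absorptive and mucus cells of the gut lining and release hormones in response to nutrients, microbial products and stretch. In the colon, L cells make proglucagon products, peptide YY and insulin-like peptide 5, enterochromaffin cells make serotonin, and D cells make somatostatin. The mix of hormones is known to differ along the gut, with secretin and cholecystokinin better known from the upper small intestine and peptide YY and insulin-like peptide 5 from the colon.

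The study gave mice dextran sulfate sodium (DSS), a polymer that injures the colon lining and brings on colitis, and asked how chick early amniotic fluid (ceAF) changes the tissue. The animals were male C57BL/6 mice of 8 weeks, and every mouse of both groups drank 3% DSS for 7 days. The DSS group (5 mice) had no ceAF, and the ceAF group (5 mice) received ceAF at 15 mL/kg by gavage for 10 days. RNA of colon tissue was sequenced, and mice without DSS were not analysed here.

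The libraries are numbered 1 to 5 within each group (DSS-1, ceAF-1 and so on), and the sources used here give no pairing of mice by number. Total counts ran from 16275884 to 19901549 in the DSS group and from 14676471 to 18811795 in the ceAF group. Levels of a gene across mice are given as CPM (the count scaled to the size of the library, by edgeR's TMM method), and genes are ranked against each other by FPKM, which divides by exonic length. A sum over a list adds the CPM of its genes, so that it can rest on 1 of them. Which stretch of the colon each piece of tissue came from is not given in the sources used here. Hoxb6, a homeobox gene whose level differs along the gut, served as a marker of position.

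Pyy was the most abundant of the 10 genes and Cck the least. Mean FPKM over the 10 mice was 77.1 ± 39.2 (SD, n = 10) for Pyy, 44.4 ± 27.6 for Insl5, 21.7 ± 9.72 for Gcg, 20.7 ± 5.26 for Chgb, 12.0 ± 2.43 for Chga and 10.5 ± 7.14 for Sst. Sct followed at 6.21 ± 4.42 FPKM, Tph1 at 1.98 ± 0.803, Neurod1 at 1.14 ± 0.430 and Cck at 1.01 ± 0.482. Pyy was above Insl5, and Chgb above Chga, in 10 of 10 mice. Other neighbours were less clearly ordered: Gcg exceeded Chgb in 5 of 10 mice, with a mean difference of 1.05 FPKM against an SD of that difference of 7.82, and Neurod1 exceeded Cck in 5 of 10. Chga exceeded Sst in 7 of 10 mice, and Insl5 exceeded Gcg in 8 of 10. In ceAF-1, Sst and Sct came next after Pyy.

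The 10 genes varied between mice more than most genes did. The ratio of the highest to the lowest CPM had a median of 2.11 over the 16453 tested genes with a count in every mouse, and all 10 hormone genes were above it. It was 31.2 for Insl5, 11.3 for Sct, 6.92 for Cck, 6.44 for Sst and 5.06 for Pyy, and smallest for Chga (2.32) and Chgb (2.21). DSS-5 was the highest mouse for Gcg, Pyy, Insl5, Neurod1 and Cck, and DSS-1 the lowest for Chga, Chgb, Tph1 and Neurod1. Summed over the 10 genes, the level was 138.0, 219.7, 205.5, 304.9 and 338.3 CPM in DSS-1 to DSS-5 and 149.6, 274.1, 229.8, 167.5 and 284.0 CPM in ceAF-1 to ceAF-5. In bulk tissue, fewer hormone cells and less hormone RNA per cell cannot be told apart.

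None of the 10 hormone genes was called as different between the ceAF and DSS groups by edgeR's quasi-likelihood test, its p-values adjusted over all genes after Benjamini and Hochberg. The test called 0 of the 10, and 0 of all 16545 genes (0%). At an unadjusted p under 0.05 it took 0 of the 10 and 1146 genes in all (6.93%), and DESeq2 called 31 genes, none of the 10 among them. The same unadjusted rule took 1 of the 10 in DESeq2 (beside 1568 of 32419 genes). With no filter on low counts it took 1 (1733 of 32504), and with the replicate numbers as a block 2 (694 of 16545). It also took 1 without DSS-2 (1058 of 16794), 1 without DSS-4 (953 of 16783) and 1 without ceAF-1 (1872 of 16784). Without DSS-5 the edgeR test called 3 genes, again none of these. Of the fitted differences, 6 were below 0 and 4 above, and their median was a log2 fold change of −0.18 beside 0.0076 over all tested genes. The ranges of the ceAF and DSS mice overlapped for all 10 genes, while 205 of 16545 genes (1.24%) had groups that did not overlap.

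Gcg encodes proglucagon, the precursor that L cells cut into glucagon-like peptides. It stood at 17.8, 31.8, 27.5, 43.3 and 58.3 CPM in DSS-1 to DSS-5, and at 15.4, 28.1, 20.0, 32.4 and 48.1 CPM in ceAF-1 to ceAF-5. DSS-5 and ceAF-5 were the highest mice of their groups, DSS-1 and ceAF-1 the lowest, and the groups overlapped over most of their range. The means were 35.7 ± 15.6 CPM (SD, n = 5) with DSS and 28.8 ± 12.7 CPM with ceAF, a log2 fold change of −0.31 (standard error 0.35). Leaving out 1 mouse moved it from −0.57 (without ceAF-5) to −0.047 (without DSS-5).

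Pyy encodes peptide YY, an L-cell hormone that slows gut transit and curbs appetite. It was at 30.3, 40.2, 42.5, 66.6 and 101.7 CPM in DSS-1 to DSS-5, and at 23.0, 60.1, 42.1, 20.1 and 58.7 CPM in ceAF-1 to ceAF-5. DSS-5 lay above every other mouse, and ceAF-1 and ceAF-4 lay below every DSS mouse. The means, 56.3 ± 28.7 CPM (SD, n = 5) and 40.8 ± 19.0 CPM, gave a log2 fold change of −0.46 (standard error 0.39). Without DSS-5 it was −0.12, and without ceAF-2 it was −0.63.

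Insl5 encodes insulin-like peptide 5, made by L cells of the colon. Its levels were 13.7, 23.8, 28.7, 50.3 and 59.5 CPM in DSS-1 to DSS-5 and 1.91, 47.7, 33.1, 9.43 and 51.5 CPM in ceAF-1 to ceAF-5. ceAF-1 and ceAF-4 were below all DSS mice while ceAF-2 and ceAF-5 were near the top of the DSS range. In ceAF-1 it rested on 25 counts, with a 95% exact Poisson interval of 16.2 to 36.9 counts, and in ceAF-4 on 158 counts (134.3 to 184.6). Its log2 fold change of −0.29 had a standard error of 0.69, the widest error among the 10 genes. It was −0.74 with the replicate block and 0.0099 without ceAF-1, and the means of log2 CPM differed by −0.84 (ceAF minus DSS).

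Cck, the cholecystokinin gene, and Sct, the secretin gene, were the scarcest peptide hormones per length. Cck was at 1.62, 0.899, 1.14, 1.54 and 2.70 CPM in DSS-1 to DSS-5 and at 1.14, 0.391, 0.932, 1.49 and 1.32 CPM in ceAF-1 to ceAF-5. All 5 ceAF mice lay below the DSS median of 1.54 CPM, which held for 1340 of 16545 genes (8.10%). The log2 fold change of Cck was −0.57 (standard error 0.38), on 6 to 45 counts per mouse, and it was −0.27 without DSS-5 and −0.35 without ceAF-2. Sct was at 1.91, 3.45, 9.28, 5.96 and 1.86 CPM in DSS-1 to DSS-5 and at 8.85, 1.89, 2.85, 3.94 and 0.825 CPM in ceAF-1 to ceAF-5. DSS-3 and ceAF-1 were the highest mice of the 10, 1 in each group, and Sct had a log2 fold change of −0.30 (standard error 0.62).

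Sst encodes somatostatin, the inhibitory peptide of D cells, which some enteric neurons also make. It stood at 12.1, 4.95, 9.10, 7.04 and 3.60 CPM in DSS-1 to DSS-5 and at 21.9, 3.45, 4.44, 3.40 and 7.04 CPM in ceAF-1 to ceAF-5. ceAF-1 alone lay above the DSS range, and 4 of 5 ceAF mice were below the DSS median of 7.04 CPM. The fitted log2 fold change was 0.12 (standard error 0.54), and it was −0.67 without ceAF-1 and −0.031 without DSS-5. The means of log2 CPM differed by −0.15 (ceAF minus DSS).

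Tph1 encodes tryptophan hydroxylase of enterochromaffin cells, the rate-limiting enzyme of serotonin synthesis outside the brain. Its levels were 5.68, 13.3, 6.76, 15.7 and 5.94 CPM in DSS-1 to DSS-5 and 9.0, 18.9, 16.8, 14.7 and 15.7 CPM in ceAF-1 to ceAF-5. All 5 ceAF mice were above the DSS median of 6.76 CPM, as they were for 1277 of 16545 genes (7.72%), but DSS-2 and DSS-4 lay within the ceAF range. Its log2 fold change of 0.67 had a standard error of 0.32 and was the largest of the 10 genes, and edgeR's quasi-likelihood test gave an unadjusted p of 0.0615 and a Benjamini-Hochberg adjusted p of 0.729.

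The remaining members are shared by many hormone cells. Chga, for chromogranin A, was at 20.3 to 47.1 CPM with DSS and at 25.7 to 36.3 CPM with ceAF, and its log2 fold change was −0.070 (standard error 0.20). Chgb, for chromogranin B, spanned 33.3 to 67.5 CPM with DSS and 35.3 to 73.6 CPM with ceAF, with a log2 fold change of 0.12 (standard error 0.23). Neurod1, a factor that acts as hormone cells mature, spanned 1.33 to 5.10 CPM and 2.44 to 4.56 CPM, with a log2 fold change of 0.20 (standard error 0.33) that ran from 0.020 to 0.52 on leaving out 1 mouse. For Chga the sign was lost without DSS-4 or without ceAF-4, where the value was 0.075 and 0.012.

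**Figure D1:**
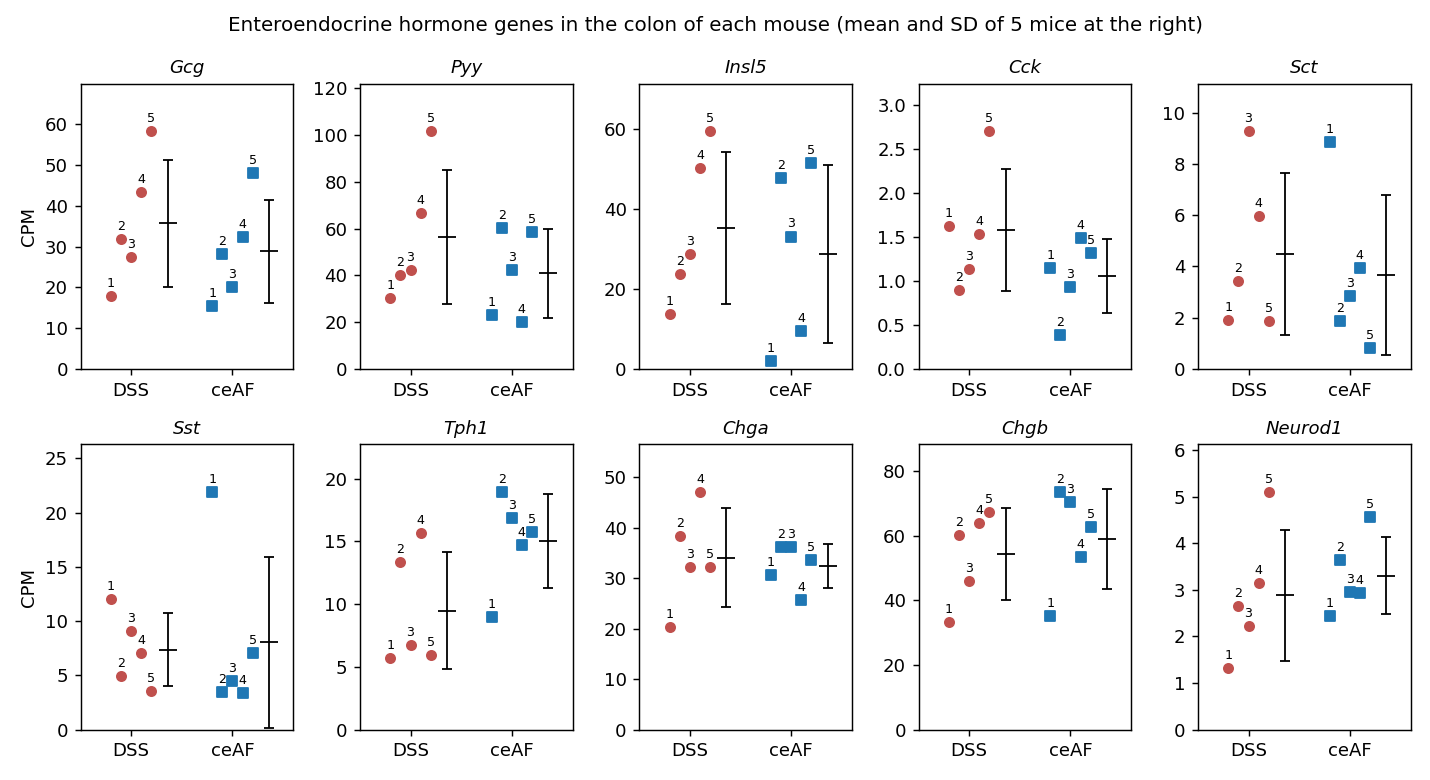
Each panel plots the CPM of 1 hormone gene (vertical axis, linear from 0) in every mouse, with red circles for the DSS and blue squares for the ceAF group; digits are the mouse numbers and the black bars the mean ± SD of 5 mice. The groups overlap in all 10 panels, and Insl5 in ceAF-1 sits at 1.91 CPM.

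An exact permutation test on log2 CPM, over all ways to choose 5 of 10 mice and two-sided, was run on each gene as a check that needs no count model. Among the 10 hormone genes the lowest p was that of Tph1 (0.0635), followed by Cck (0.222) and Pyy (0.310). Of the 16545 genes, 1102 (6.66%) had a p under 0.05 in this test, and 0 of the 10 hormone genes did.

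Since hormone cells belong to the epithelium, the levels were also taken relative to 14 epithelial genes, as log2 CPM less their mean log2 CPM. This reference was not constant, with deviations from −0.59 in DSS-5 to 0.38 log2 units in DSS-4. It holds Car1, which ran from 114.8 to 11920 CPM and was called as higher with Hoxb6. Relative to the epithelium, Tph1 was −7.16 ± 0.50 (SD, n = 5) with DSS and −6.39 ± 0.50 with ceAF, a difference of 0.77. The exact permutation p was 0.0476 for Tph1, which became 1 with Benjamini-Hochberg adjustment over all genes; 415 of 16545 genes (2.51%) had a p under 0.05. With Epcam alone as the reference the difference was 0.78 and the exact p 0.0635. The other 9 hormone genes had exact p-values from 0.333 for Cck to 0.944 for Chga.

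Immune markers differed in level between these same mice. The summed level of 7 neutrophil genes was 1823, 123.6, 303.5, 201.0 and 550.6 CPM in DSS-1 to DSS-5 and 21.1, 249.4, 184.5, 130.8 and 212.8 CPM in ceAF-1 to ceAF-5. The sum was mostly Ly6g in all mice but DSS-1 and DSS-3, as in DSS-5 (482 CPM) and ceAF-2 (237 CPM), so there it follows 1 gene. S100a9 had another order, with 696.7 CPM in DSS-1, 84.6 CPM in DSS-3 and 0.305 to 16.2 CPM in the other 8 mice. Cxcr2 was at 45.7 CPM in DSS-1, 3.77 CPM in DSS-3 and 0.660 CPM in DSS-5. The sum therefore does not rank the mice by neutrophil content. Ly6g was the most abundant of these genes (197.8 FPKM on average), none was at 0 in all mice, and all 6 tested were lower with ceAF, 5 of them at an unadjusted p under 0.05 in edgeR's quasi-likelihood test but none called. The 8 T-cell genes summed to between 41.0 and 107.9 CPM with DSS and between 25.7 and 61.6 CPM with ceAF, with Trbc2 the most abundant. All 8 were lower with ceAF, with a median of −1.21 log2 units, and 7 of them had an unadjusted p under 0.05 in edgeR's quasi-likelihood test but none was called; 607 of all 16545 genes were lower at that p. The 14 epithelial genes, Car1 the most abundant, summed to 28820 CPM with DSS and 28800 CPM with ceAF on average, 7 lower and 7 higher. The part of immune and epithelial content in the hormone levels was not tested.

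Some of the hormone genes are also made outside the epithelium. The 16 enteric neuron genes, led by Vip (6.59 FPKM), summed to 251.2, 83.1, 162.9, 63.3 and 108.3 CPM in DSS-1 to DSS-5 and to 145.1, 119.2, 77.1, 102.4 and 120.2 CPM in ceAF-1 to ceAF-5. Sst was high in DSS-1 and ceAF-1, which with DSS-3 were the 3 highest in this sum, and no neuron gene was at 0 in any mouse. Mast cells can make serotonin with the same enzyme, and of 11 mast cell genes 4 passed the filter on low counts, with Kit the most abundant at 4.13 FPKM. Hdc was at 150.0 CPM in DSS-1 and 0.550 to 13.1 CPM in the other 9 mice. The mast cell sum was 201.2 CPM in DSS-1, mostly from Hdc. It was between 33.1 and 60.9 CPM in the other 9 mice, mostly from Kit. The defining gene Cpa3 had 1 to 12 counts per mouse, and Tpsab1 had 1 count over all 10. The mast cell sum thus follows Hdc or Kit and does not rank the mice by mast cell content. Tph1 was lowest in DSS-1. The part of neurons and mast cells in these levels was not tested. Of 12 pancreas genes, Ins1, Ins2 and Amy2a5 had no count in any mouse. Prss2, Cela2a, Cpa1, Cpb1, Pnlip, Ctrb1 and Iapp had 6 counts or fewer in every mouse. The sum of the list was 82.2 CPM with DSS and 68.0 CPM with ceAF on average. Cela1, the most abundant (31.4 FPKM), made up 78.8 and 65.3 CPM of it, so that the sum rests on 1 gene.

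Against Hoxb6, Sct was the hormone gene that stood out. The levels of Hoxb6 were 1.27, 25.3, 36.6, 22.4 and 0.960 CPM in DSS-1 to DSS-5 and 91.0, 0.846, 17.4, 2.98 and 0.880 CPM in ceAF-1 to ceAF-5. High and low mice occurred in both groups, with a log2 fold change of 0.38 (standard error 1.28) for ceAF against DSS, while the means of log2 CPM differed by −0.56 (ceAF minus DSS) and 4 of 5 ceAF mice were below the DSS median of 22.4 CPM. Of the mice, 5 lay at or below 2.98 CPM and 5 at or above 17.4 CPM, a gap of 2.52 in a range of 6.65 log2 units; this was 0.379 of the range, under the limit of 0.5 set for treating the mice as separate clusters, so that slopes over all mice are given. The neighbours Hoxb5, Hoxb7 and Hoxb8 rose with Hoxb6, and Hoxb9 was between 57.0 and 112.2 CPM in all mice with a slope of 0.063.

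The slope on Hoxb6, fitted with the group as a further term, gives the log2 change per log2 unit of Hoxb6. Of the 10 hormone genes, edgeR's quasi-likelihood test, with p-values adjusted as before, called Sct as higher with Hoxb6, beside 347 of 16544 genes (2.10%), and 0 as lower, beside 68 of 16544 genes (0.411%). The slope of Sct was 0.36 (standard error 0.071), and its Benjamini-Hochberg adjusted p in edgeR's quasi-likelihood test was 0.0265. A 4-fold higher Hoxb6 thus went with a 1.66-fold higher Sct. The mice with the most Hoxb6, ceAF-1 and DSS-3, had 8.85 and 9.28 CPM of Sct, and those with the least, ceAF-2 and ceAF-5, had 1.89 and 0.825 CPM.

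The call of Sct depended on which mice were in the fit, while its slope changed little. Leaving out each mouse in turn gave slopes from 0.33 to 0.39. In edgeR's quasi-likelihood test the Benjamini-Hochberg adjusted p was 0.297 without ceAF-1, 0.0683 without DSS-3, 0.0615 without ceAF-5, 0.0575 without DSS-5, 0.0561 without DSS-4 and 0.0536 without ceAF-2, and from 0.0160 to 0.0387 without each of the other 4 mice. The number of genes called moved as well, from 415 with all mice to 45 without ceAF-1, 188 without ceAF-5, 205 without DSS-3, 218 without DSS-4, 231 without DSS-2 and 268 without ceAF-2, and to 716 without DSS-1 and 716 without ceAF-3.

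The L-cell genes had slopes below 0 that were not called. The slope was −0.14 (standard error 0.065) for Gcg, −0.14 (0.071) for Pyy and −0.23 (0.15) for Insl5. Leaving out 1 mouse gave −0.19 to −0.096 for Gcg, −0.19 to −0.080 for Pyy and −0.35 to −0.088 for Insl5. ceAF-1, the mouse with the highest Hoxb6, had the lowest Gcg and Insl5 of all 10 mice, and DSS-5, among the lowest in Hoxb6, had the highest Gcg, Pyy and Insl5. DSS-1 broke this order, being low in Hoxb6 and low in all 3 genes, and ceAF-4 was low in Hoxb6, Pyy and Insl5. Without DSS-1 the slope of Gcg was −0.19, with a Benjamini-Hochberg adjusted p of 0.0232 in edgeR's quasi-likelihood test, and Gcg was then called. In that fit 185 of 16713 genes were called as lower. Without DSS-1 that test gave 7 of the 10 hormone genes an unadjusted p under 0.05, beside 3569 of 16713 genes. With all mice it gave 1 of the 10 such a p, beside 3088 genes in all. The slopes of the other hormone genes were 0.17 for Sst (standard error 0.091), 0.042 for Chga, 0.028 for Tph1, −0.044 for Chgb, −0.076 for Cck and −0.093 for Neurod1, and for Sst the value was −0.031 without ceAF-1. Leaving out 1 mouse gave slopes from −0.13 to −0.013 for Cck, from −0.14 to −0.022 for Neurod1 and from 0.0078 to 0.074 for Chga.

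**Figure D2:**
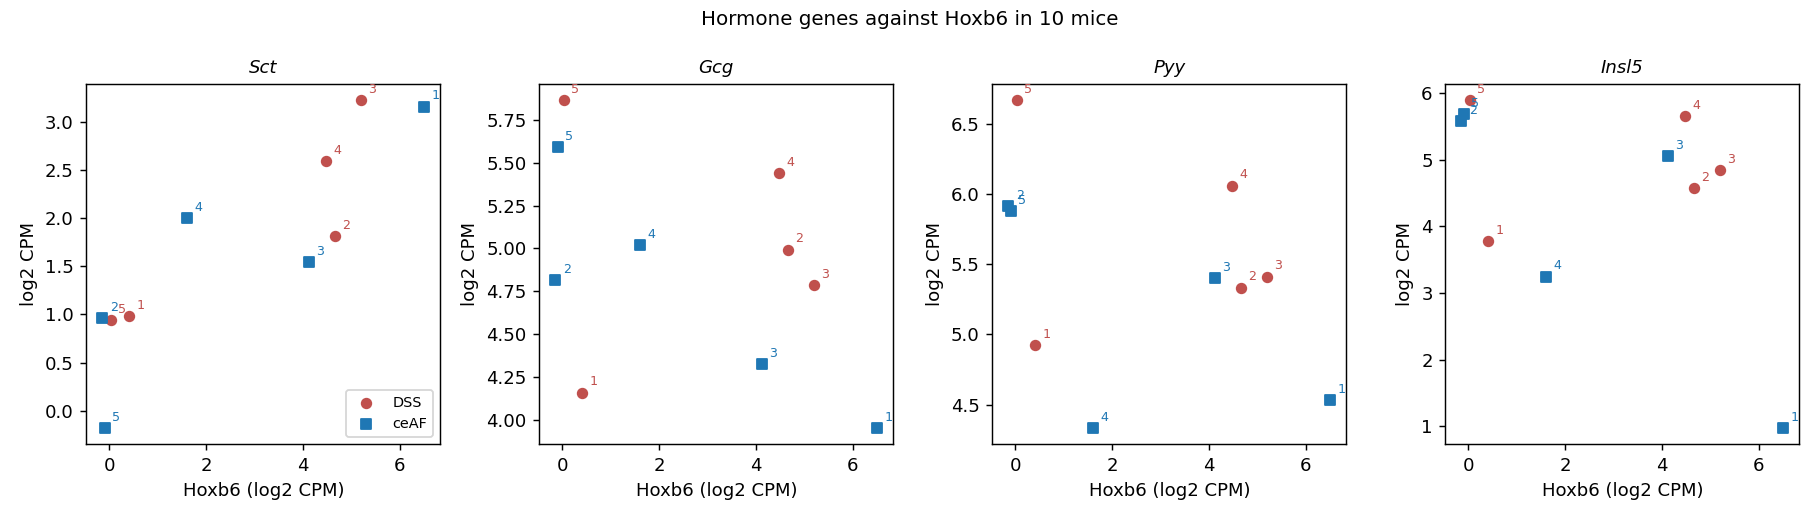
Log2 CPM of Sct, Gcg, Pyy and Insl5 (vertical axes) is plotted against log2 CPM of Hoxb6 (horizontal axes) for 10 mice, red circles for DSS and blue squares for ceAF, with the mouse numbers beside the points. Sct is higher in mice with more Hoxb6, while DSS-1 and ceAF-4 are low in Pyy and Insl5 at low Hoxb6 and ceAF-1 is low in Gcg, Pyy and Insl5 at the highest Hoxb6.

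The correlation of log2 levels over the 10 mice, which needs no count model, put Sct at the edge of the threshold. Pearson's r of Sct with Hoxb6 was 0.866 (permutation p = 0.00116, two-sided), and Spearman's rho was 0.891 (permutation p = 0.00109). With Benjamini-Hochberg adjustment over the 16544 relations computed, these permutation p-values became 0.0504 and 0.0850. By the same rule 308 genes (1.86%) were called with r above 0 and 66 (0.399%) with r below 0, and 0 genes for rho. Without ceAF-1 and ceAF-2, the mice farthest from the median of Hoxb6, r of Sct was 0.822, and for deviations from the group means it was 0.866 (exact permutation p = 0.00688).

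For the other hormone genes the correlation with Hoxb6 was weaker. Pearson's r was −0.474 for Insl5 (permutation p = 0.163), with a rho of −0.564 (permutation p = 0.0960), and r was 0.0157 without ceAF-1 and ceAF-2. Of these 2 mice ceAF-1 weighed more, since the slope of Insl5 was −0.088 without ceAF-1 and −0.21 without ceAF-2. Gcg had an r of −0.435 (permutation p = 0.203) and a rho of −0.467 (permutation p = 0.178), with −0.290 without the same mice. Sst had an r of 0.494 (permutation p = 0.148) and a rho of 0.564 (permutation p = 0.0960), with 0.0610 without them. For others r moved away from 0 without these 2 mice, from −0.0977 to −0.677 for Cck and from 0.349 to 0.583 for Chga. Neurod1 had the largest rho of the 9 (−0.636, permutation p = 0.0542) with an r of −0.345, and Chgb had a rho of −0.515 (permutation p = 0.133). The adjusted permutation p-values of r were 0.451 or more for the 9 hormone genes other than Sct, and those of rho 0.319 or more.

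Within each group of 5 mice, r with Hoxb6 could be far apart. It was −0.0346 with DSS and −0.890 with ceAF for Gcg, 0.0474 and −0.788 for Insl5, −0.230 and −0.610 for Pyy and −0.0697 and −0.864 for Neurod1. The signs were opposite for Insl5 and for 4 more genes, with 0.677 for DSS and −0.787 for ceAF in Tph1, −0.809 and 0.288 in Cck, 0.226 and −0.712 in Chgb and 0.657 and −0.144 in Chga. Sct had 0.896 and 0.846, and Sst 0.117 and 0.699. Whether the relation to Hoxb6 differs between the groups was not tested.

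With Hoxb6 held in the fit, none of the hormone genes was called between the ceAF and DSS groups by edgeR's quasi-likelihood test. It called 0 of the 10 and 0 of 16544 genes (0%), with 0 of the 10 and 1493 genes in all (9.02%) at an unadjusted p under 0.05; this fit was not run in another tool. That rule took 2 of the 10 without DSS-1 (beside 1067 of 16713 genes). It took 1 of the 10 without DSS-2 (1253 of 16794), without DSS-4 (1152 of 16783) and without ceAF-1 (1778 of 16784). The log2 fold change given Hoxb6 was −0.47 for Gcg (standard error 0.31), −0.58 for Pyy (0.35) and −0.70 for Insl5 (0.68), each further below 0 than without Hoxb6. Leaving out 1 mouse moved these values widely, from −0.75 to −0.28 for Gcg, from −0.82 to −0.30 for Pyy and from −1.37 to −0.15 for Insl5. For Tph1 it was 0.71 (standard error 0.35), from 0.50 without DSS-1 to 1.09 without ceAF-1. Without ceAF-2 the fit called 2 genes and without ceAF-3 it called 1, none of them a hormone gene.

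**Figure D3:**
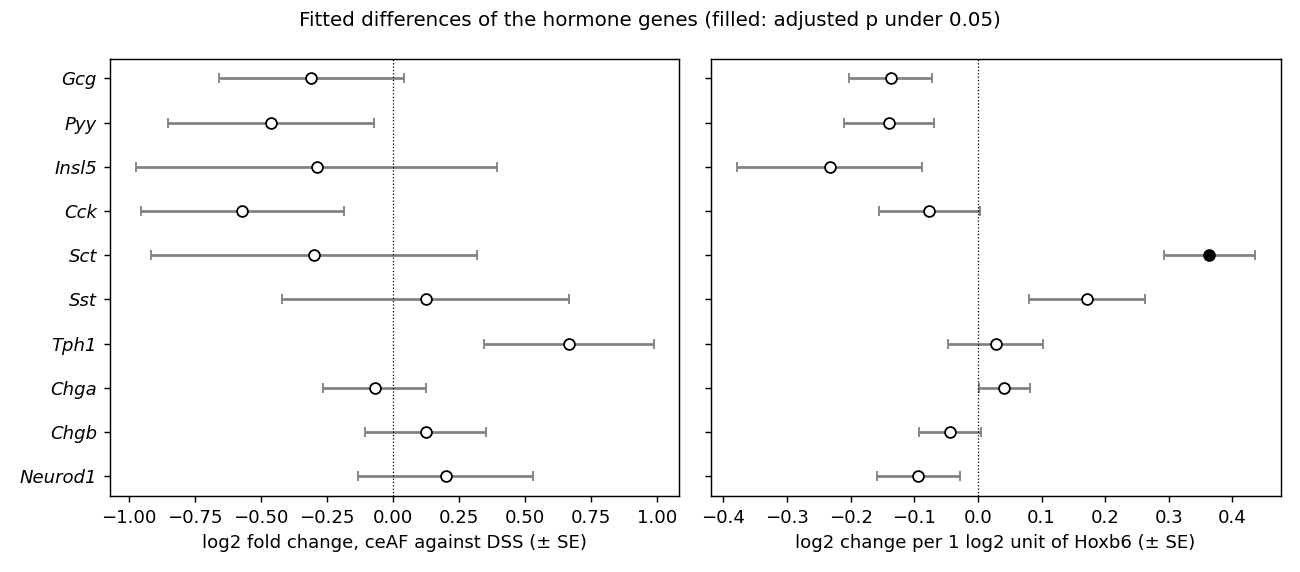
The left panel plots the fitted log2 fold change of each hormone gene for ceAF against DSS, and the right panel its log2 change per log2 unit of Hoxb6. Bars are standard errors derived from the F statistic of the fit to 10 mice. Filled points have an adjusted p under 0.05 by edgeR's quasi-likelihood test. The only filled point is Sct at 0.36 in the right panel.

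Genes that act with the hormones were followed as fixed lists. Of 15 other gut hormones and transmitter peptides, 10 were tested, 9 of them below 0 for ceAF against DSS and 1 above, the median log2 fold change being −0.21. Guca2a, the guanylin gene of many epithelial cells, was the most abundant at 904 FPKM. Nts, the gene of neurotensin, a hormone of N cells, was the member of this list called for a slope on Hoxb6. Its levels were 1.62, 24.0, 14.4, 14.9 and 0.120 CPM in DSS-1 to DSS-5 and 40.3, 0.325, 6.47, 4.77 and 0 CPM in ceAF-1 to ceAF-5. The slope of Nts was 0.95 (standard error 0.14; Benjamini-Hochberg adjusted p = 0.00816, edgeR's quasi-likelihood test), and high and low mice were found in both groups. Tac1, for the tachykinin precursor, had a log2 fold change of −1.27 (standard error 0.58) and was at 144.3 CPM in DSS-5 beside 13.4 to 46.2 CPM in the other 9 mice.

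Among the transcription factors of hormone cells, 14 of 21 were tested and 9 had values above 0 for ceAF against DSS, the median log2 fold change being 0.17. Atoh1, needed for all secretory cells, was the most abundant (22.2 FPKM). Rfx6, a factor of hormone cell identity, was at 0.464, 1.15, 1.32, 0.961 and 1.38 CPM in DSS-1 to DSS-5 and at 2.06, 1.50, 1.70, 1.25 and 2.14 CPM in ceAF-1 to ceAF-5. ceAF-4 alone lay within the DSS range. Its log2 fold change was 0.71 (standard error 0.30) with an unadjusted p of 0.0379 and a Benjamini-Hochberg adjusted p of 0.703 in edgeR's quasi-likelihood test, so it was not called. Neurog3, which starts the hormone cell lineage, had 3 to 15 counts per mouse and did not pass the filter.

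The 21 genes of granules and prohormone processing, Chga and Chgb among them, were all tested, with 16 below 0 and 5 above for ceAF against DSS, the median log2 fold change being −0.10. Cpe, which trims prohormones, was the most abundant (25.5 FPKM). Pam, the enzyme that amidates peptide hormones, was lower with Hoxb6, with a slope of −0.15 (standard error 0.029, Benjamini-Hochberg adjusted p = 0.0293, edgeR's quasi-likelihood test). Syt7, a calcium sensor of vesicle release, was higher with Hoxb6, with a slope of 0.094 (standard error 0.019, Benjamini-Hochberg adjusted p = 0.0285, edgeR's quasi-likelihood test). Pam was at 295.1 CPM in DSS-5 and 94.0 CPM in ceAF-1, the ends of its range.

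Of 12 genes of serotonin synthesis, storage and uptake, Tph1 among them, 11 were tested, 8 above 0 and 3 below for ceAF against DSS, the median log2 fold change being 0.26, with 0 called for the group or for Hoxb6. Maoa, which breaks serotonin down, was the most abundant (212.5 FPKM). Slc18a1, the vesicular monoamine transporter, had 3.71, 4.65, 2.75, 3.52 and 3.66 CPM in DSS-1 to DSS-5 and 5.19, 3.65, 4.39, 5.49 and 3.52 CPM in ceAF-1 to ceAF-5, and the groups overlapped. Tph2, the form of the enzyme in neurons, had no count in any mouse.

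Most receptors of these hormones were scarce. Of 17 receptors for the hormones of the 10 genes, 8 were tested, and Rxfp4, the receptor of insulin-like peptide 5, had 5 counts over all 10 mice. Sctr, the secretin receptor, had 15. Sstr1, a somatostatin receptor, was the most abundant at 3.72 FPKM and was higher with Hoxb6, with a slope of 0.37 (standard error 0.068, Benjamini-Hochberg adjusted p = 0.0209, edgeR's quasi-likelihood test). Sstr3 had a log2 fold change of 0.96 for ceAF against DSS (standard error 0.32, unadjusted p = 0.0130 by edgeR's quasi-likelihood test) and was not called. Of 18 nutrient and metabolite sensors, 9 were tested and none was called. Ffar4, a receptor of long-chain fatty acids, was the most abundant at 15.6 FPKM. Ffar2, a receptor of short-chain fatty acids found on L cells and on neutrophils, was at 11.9, 10.4, 11.8, 18.3 and 7.74 CPM in DSS-1 to DSS-5 and at 6.03, 5.60, 7.46, 10.8 and 7.09 CPM in ceAF-1 to ceAF-5. Its log2 fold change was −0.70 (standard error 0.25, unadjusted p = 0.0164 by edgeR's quasi-likelihood test), and ceAF-4 was the only ceAF mouse inside the DSS range.

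Other lists also held genes called with Hoxb6. All 8 tested genes better known from the small intestine had slopes above 0, and 4 of them, Reg3b, Slc10a2, Fabp2 and Sis, were called as higher with Hoxb6. Their list summed to 442.8, 2534, 1801, 1747 and 329.3 CPM in DSS-1 to DSS-5 and to 5879, 318.7, 919.5, 1760 and 249.6 CPM in ceAF-1 to ceAF-5, with Reg3b the most abundant (796.9 FPKM) and no gene at 0 in all mice. In the epithelial list Car1 was called as higher, with a slope of 0.68 (standard error 0.096). All 6 smooth muscle genes had slopes below 0, and 4 were called as lower, Cnn1 with a slope of −0.23 (standard error 0.026), Actg2, Des and Tagln. The smooth muscle list, led by Actg2 (204.3 FPKM), summed to 2368, 2105, 1487, 1278 and 2709 CPM in DSS-1 to DSS-5 and to 1207, 2875, 1150, 1407 and 2282 CPM in ceAF-1 to ceAF-5. The other 4 small intestine genes and 2 smooth muscle genes were not called, and of all 16544 genes 2.10% were called as higher and 0.411% as lower. The part of position or of muscle content in the slope of Sct was not tested. Among 25 Hox and other position genes tested against Hoxb6, 7 were called as higher with Hoxb6, Hoxb3, Hoxb4, Hoxb5, Hoxb7, Hoxb8, Hoxd4 and Hoxd8, and Hoxd13 was at 121.3 CPM in ceAF-2 and 108.6 CPM in ceAF-3 beside 0 to 10.5 CPM in the other 8 mice.

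The genes whose pattern over the 10 mice was most like the mean of the hormone genes included Insm1, a transcription factor of hormone cells (Pearson's r of 0.867 over 10 mice). The highest r was 0.935, for Emg1, followed by Zfp947 (0.930), Atp6ap2 (0.878), Ska2 (0.875), Lefty1 (0.873), Apex2 (0.870) and Ung (0.868). Bccip (0.865) and Mrpl18 (0.855) closed the first 10. These values are a description of the mice at hand, picked as the highest of all tested genes.

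The 10 genes lie on 7 chromosomes in the deposited table, whose genome build is not given in the sources used here. Gcg (62304874 to 62313994), Neurod1 (79282865 to 79287095) and Chgb (132623198 to 132636999) are on chromosome 2, and Sct (140858243 to 140859046) and Tph1 (46294065 to 46321961) on chromosome 7. Neurod1 overlaps Cerkl on the same strand, which had 3 to 11 counts per mouse, and no other hormone gene overlaps a gene of the table. Hoxb6 overlaps Hoxb5os on the other strand, which had 13 to 144 counts per mouse; whether the counting used strand is not given in the sources used here.

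Promoter sequences from RefSeq, on the GRCm38.p6 build, were matched by symbol for 10 of the 10 genes, which have 13 entries. The 250 bases before the start were searched on both strands for CAGCTG, its own reverse complement, for CAGATG, which reads CATCTG on the other strand, both of them E-boxes of the kind that factors such as Neurod1 can bind, and for TATAAA, which reads TTTATA on the other strand, the TATA box. CAGCTG was present in 2 of the 13 entries, of Chga and Sct, beside 13.0% of all 32851 promoters. CAGATG was present in 4, of Cck, Gcg, Insl5 and Sct, beside 14.4%, and TATAAA in 4, of Gcg, Insl5 and Sct, beside 12.4%. The sequences of Sct, the gene called with Hoxb6, and of Gcg and Pyy, whose slopes lay below 0, are shown on the strand of the gene with these motifs in capitals; they lie at chr7:141279134-141279383, chr2:62483654-62483903 and chr11:102107833-102108082, all on the minus strand. These positions do not match those of the deposited table, where Sct ends at 140859046 and Gcg at 62313994. The 2 sets of coordinates are thus not on the same build and cannot be set against each other. The first of the 2 entries of Pyy is shown. None of the 3 motifs occurs in it, which says only that these letters are not there.
Sct: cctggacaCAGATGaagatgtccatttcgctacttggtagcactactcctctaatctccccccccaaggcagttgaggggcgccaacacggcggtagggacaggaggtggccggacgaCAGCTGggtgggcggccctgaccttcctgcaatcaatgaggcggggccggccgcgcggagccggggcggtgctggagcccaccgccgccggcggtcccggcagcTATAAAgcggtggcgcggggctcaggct
Gcg: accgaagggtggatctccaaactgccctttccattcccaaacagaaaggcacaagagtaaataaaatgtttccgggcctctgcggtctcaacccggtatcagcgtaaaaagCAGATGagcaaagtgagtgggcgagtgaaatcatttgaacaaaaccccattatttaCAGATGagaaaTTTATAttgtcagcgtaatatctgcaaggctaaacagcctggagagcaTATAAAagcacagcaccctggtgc
Pyy: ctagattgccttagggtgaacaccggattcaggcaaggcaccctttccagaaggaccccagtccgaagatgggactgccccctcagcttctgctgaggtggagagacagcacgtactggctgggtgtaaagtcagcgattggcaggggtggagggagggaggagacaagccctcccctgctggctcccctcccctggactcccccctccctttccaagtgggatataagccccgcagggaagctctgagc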

How the data were processed

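The authors deposited counts per gene and FPKM values for each of the 10 libraries; their processing notes name cutadapt 1.9.1 and HISAT2 2.2.1, and the counting tool and genome build are not given in the sources used here. Each deposited FPKM equals the count divided by exonic length and by the library's total count within 0.005. The counts were analysed with edgeR 4.0.16 in R 4.3.3: filterByExpr with a minimum count of 10, TMM scaling, quasi-likelihood tests, Benjamini-Hochberg adjustment over all genes kept and a threshold of 0.05. Standard errors of log2 fold changes and slopes were derived from these tests, as the size of the estimate over the square root of its F statistic. Log2 CPM used a prior count of 1. The slope on Hoxb6 was fitted with the group as a further term. The tests were checked on simulated data. Exact tests used all assignments of 5 of 10 mice, where the smallest p is 0.00794, and correlations 100000 resamples. DESeq2 1.42.0, upper quartile scaling, no filter, other markers and leaving out each mouse were alternatives. The members and lists were chosen with earlier results of these data known. Named genes are the 10 members, Hoxb6, from each list the most abundant gene, genes called or with the 3 smallest p-values, and the 10 genes most like the members' mean; beyond this rule, untested genes of the lists are named where they had few counts or none, and Hox genes and overlapping genes for their levels. No source says that mice were pooled, and each library is taken as 1 mouse.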

Additional observations from a re-analysis of the deposited data

How the results depend on the processing

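For ceAF against DSS, edgeR called 0 genes with upper quartile scaling, with no filter and with the replicate block, DESeq2 called 31, and leaving out 1 mouse gave 0 to 3. The replicate numbers were not taken as pairs in the main fit. The correlation of deviations between mice of the same number ran from −0.249 to 0.286, and only for number 5 was it the best match. Such values cannot settle whether the numbers pair the mice. With the replicate block the log2 fold change of Sst was −0.15 and 694 genes had an unadjusted p under 0.05 in edgeR's quasi-likelihood test. For the slope on Hoxb6, 373 genes were called with upper quartile scaling, 361 with no group term and 563 with the mean of Hoxb5 to Hoxb9 as marker, and leaving out 1 mouse gave 45 to 716. Given Hoxb6, leaving out 1 mouse gave 0 to 2. Sct was called under the 3 alternatives of the slope that kept all mice. The slope of Tph1 was −0.022 with no group term. Leaving out 1 mouse turned some signs. The log2 fold change ran from −0.20 to 0.075 for Chga, from −0.0054 to 0.26 for Chgb, from −0.61 to 0.0099 for Insl5, from −0.92 to 0.16 for Sct and from −0.67 to 0.38 for Sst. The slope ran from −0.086 to 0.015 for Chgb, from −0.031 to 0.26 for Sst and from −0.019 to 0.13 for Tph1. Given Hoxb6 the log2 fold change ran from −0.19 to 0.092 for Chga, from −0.12 to 0.29 for Chgb, from −0.39 to 0.012 for Sct, from −0.73 to 0.52 for Sst and from −0.12 to 0.48 for Neurod1. The cause was not tested. Cck, Sct in ceAF-5 (15 counts) and Insl5 in ceAF-1 (25 counts) rest on few counts, which limits their precision. The 95% interval of Insl5 in ceAF-1 (16.2 to 36.9 counts) still lay below that of ceAF-4, the next lowest mouse (134.3 to 184.6). Dixon's test at its 95% limit set no mouse apart in log2 CPM of the 10 genes and Hoxb6 in either group.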
